A study of Ovis aries with 6 samples.

Results

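The genes described here encode 10 heat shock proteins and cochaperones of the cytosol and the mitochondria, taken by gene symbol: HSPB1, HSPA6, HSP90AA1, HSP90AB1, HSPA8, HSPH1, DNAJB1, BAG3, HSPD1 and HSPE1. A row was matched for 9 of the 10 among 26067 features, and all 9 had at least 60 counts over the libraries. HSPE1, the mitochondrial co-chaperonin, was not matched under its symbol and was not analysed here. By their usual description in mammals, 6 members were taken as stress-inducible (HSPB1, HSPA6, HSP90AA1, HSPH1, DNAJB1 and BAG3), 2 as constitutive (HSP90AB1 and HSPA8), and HSPD1 as mitochondrial.

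Heat shock proteins are chaperones, which hold unfolded proteins, refold them or pass them on for degradation. HSP70 proteins bind short exposed stretches of a client with the help of J-domain cochaperones, and nucleotide exchange factors then release it. HSP90 proteins act on clients that are closer to their final fold, among them kinases and steroid receptors, and small heat shock proteins keep damaged proteins from clumping without using ATP. Heat, hypoxia or damaged proteins activate heat shock factor HSF1, which induces part of the family, while the constitutive members are made in nearly all cells at all times.

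Pituitary RNA of 6 sheep (Ovis aries) was read as full-length complementary DNA on Oxford Nanopore devices. The study's design names 3 small-tailed Han sheep, its high-reproduction group, and 3 Wadi sheep, its low-reproduction group, all described as healthy, without ages. The libraries are labelled C1 to C6 and carry no breed, so each is described by itself, no breeds are compared, and there are no replicates. Lists of 6 values follow the order C1, C2, C3, C4, C5 and C6.

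The libraries held 1981644 (C6) to 2732911 (C2) gene counts, so that 1 count was worth 0.366 to 0.505 counts per 1000000 (CPM), the level used here. C1, C2 and C3 stood apart from C4, C5 and C6 and went against the tissue label. The 7 pituitary hormone genes summed to 139, 47.2, 50.3, 142071, 299657 and 47146 CPM, and in each of C1, C2 and C3 TSHB was at 0 counts. The 16 cerebellar neuron genes summed to 6777, 6844, 6436, 331, 388 and 281 CPM, with all 16 at or above 10 CPM in C1, C2 and C3, whereas C4 had 4 such genes, C5 4 and C6 6. The member ratios below are therefore also given for C4, C5 and C6 alone, and values within a library stand by themselves. In tissue RNA, fewer cells of a type and less RNA per cell cannot be told apart. Intervals cover counting error only and, without replicates, hold no variation between sheep. Amplified reads without molecular identifiers are not independent molecules, so the intervals may be too narrow even for counting error.

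The 9 members together took 0.426, 0.546, 0.586, 0.453, 0.374 and 0.465% of the gene counts, from a low of 0.374% in C5 (95% Wilson interval 0.366 to 0.382%) to a high of 0.586% in C3 (0.577 to 0.595%). The hormone genes are part of this total, with their largest sum in C5 (299657 CPM) and their smallest in C2 (47.2 CPM). Shares of the counts outside the hormone genes were not calculated, so the low in C5 is stated for all gene counts alone. Levels in CPM have the same total and the same limit. HSP90AA1, HSP90AB1 and HSPA8 made up 92.9, 93.1, 92.0, 77.9, 88.3 and 87.9% of the members' counts. That share was lowest in C4, at 77.9% (77.1 to 78.7%), where HSPB1 was at its highest. A gene was called as differing between libraries at a chi-square test adjusted p under 0.05 over all genes and a ratio of highest to lowest CPM of at least 2. This test compares libraries, not conditions. By this rule 6 of the 9 members were called, against 80.9% of the 13248 genes tested, so the members' share was not above the background. The called members were HSPB1, HSPA6, HSPH1, DNAJB1, BAG3 and HSPD1. Of these, HSPA6 reached 60 counts only through C4, with 58 counts without it, so its call depends on C4. By the adjusted p alone all 9 members passed, against 90.1% of all genes. Of the 9 members, 4 were called and highest in C4, 1 in C3 and 1 in C5. Of all genes tested, 11.4, 13.6 and 9.42% were called with that same highest library. None was called and highest in C1, C2 or C6, where 17.1, 12.3 and 17% of all genes tested were. Likewise 4 of the 9 were called and lowest in C1, 1 in C2 and 1 in C5 (12.6, 10 and 28.6% of all genes tested). None was called and lowest in C3, C4 or C6 (5.49, 10.3 and 13.8%). The members' median ratio was 3.62, beside 4.31 for all genes tested. Comparisons of ratios with all genes, here and below, were not matched for counts per gene. In C4, C5 and C6 alone 3 members were called (HSPB1, HSPA6 and HSPH1), against 40.2% of 9166 genes, and in C1, C2 and C3 alone 1 was (HSPB1), against 10.3% of 10281.

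**Figure D1:**
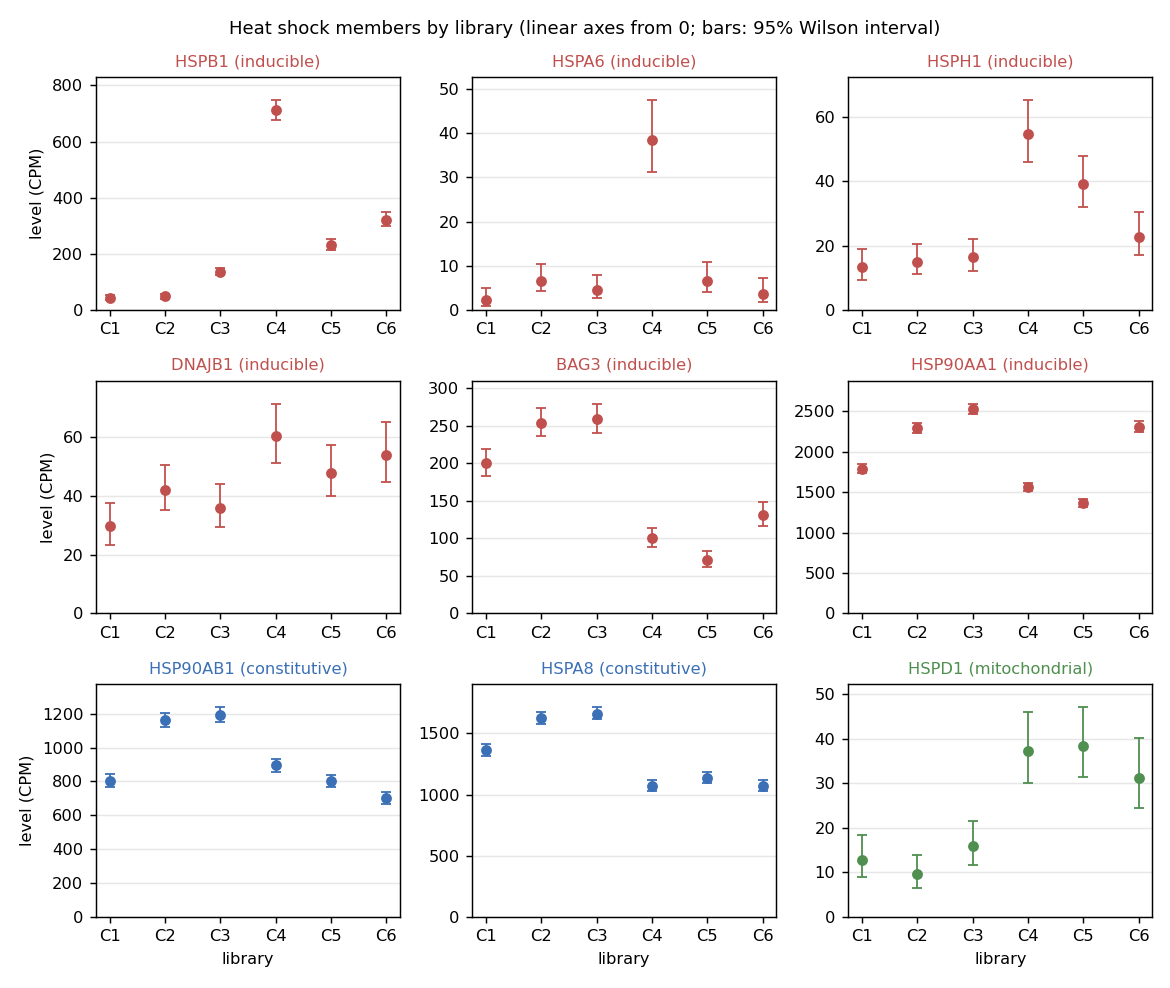
Level of each of the 9 members in each library in CPM, with 95% Wilson intervals as bars, on linear axes from 0 and coloured by class. HSPB1, HSPA6, HSPH1 and DNAJB1 were highest in C4 (711, 38.5, 54.7 and 60.4 CPM), while BAG3, HSP90AA1, HSP90AB1 and HSPA8 were highest in C3 (259, 2532, 1195 and 1662 CPM), the last 2 and BAG3 by so little over C2 that C2 was highest under TMM or DESeq2 scaling.

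In CPM the constitutive members had the smallest ratios, whereas HSP90AA1 had the smallest under TMM and DESeq2 scaling and BAG3 in TPM. HSPA8, the housekeeping HSP70 that also strips clathrin from vesicles, was at 1364, 1627, 1662, 1072, 1137 and 1069.8 CPM. Its highest library, C3, exceeded its lowest, C6, by 1.55-fold (exact 95% interval 1.47 to 1.64), a smaller ratio than in all but 4.54% of the genes tested. C3 and C2 did not differ beyond counting error, with a ratio of 1.02 (exact 95% interval 0.980 to 1.07), nor did C4 and C6, with 1.00 (exact 95% interval 0.945 to 1.06). HSP90AB1, the constitutive cytosolic HSP90, was at 805, 1160.3, 1195, 895, 801 and 702 CPM, highest in C3 and lowest in C6, by 1.70-fold (exact 95% interval 1.60 to 1.81). The count of HSP90AB1 per 100 counts of HSPA8 was 59.0, 71.3, 71.9, 83.5, 70.4 and 65.6, lowest in C1 and highest in C4. For both genes C2 took the place of C3 as the highest library under TMM or DESeq2 scaling, which use other library factors, and C6 stayed the lowest. In C4, C5 and C6 alone the ratio of HSPA8 was 1.06 and that of HSP90AB1 1.28. Processed copies of both genes are common in mammalian genomes, so their counts are uncertain where reads were assigned to such copies or split with them.

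HSP90AA1, the HSP90 isoform that heat shock factors induce but that neurons and many other cells also hold at a high basal level, was the member with the most counts, at 4179, 6273, 6692, 3572, 3301 and 4585. Its level was 1792, 2295, 2532, 1564, 1364 and 2314 CPM, highest in C3 and lowest in C5, by 1.86-fold (exact 95% interval 1.78 to 1.94), under the threshold of 2, and under TMM or DESeq2 scaling C4 was lowest, by 1.55 and 1.45. Within C4, C5 and C6 alone the ratio was 1.70, with C6 highest. C6 and C2 did not differ beyond counting error, at a ratio of 1.01 (exact 95% interval 0.970 to 1.05). Set against its constitutive paralogue within each library, a measure that no library scaling can change, HSP90AA1 had 223, 198, 212, 175, 170.3 and 329.6 counts per 100 counts of HSP90AB1. C6 stood above the other 5 libraries, at 329.6 (310.4 to 350.2), and C5 and C4 were the lowest, at 170.3 (161 to 180.2) and 175 (165 to 185). The ratio in C6 also reflects HSP90AB1, which had its lowest level there, at 702 CPM. C6 was also the library with the highest summed level of 6 oligodendrocyte genes (959.7, 663, 717, 73.1, 19.0 and 5774 CPM, all 6 above 10 CPM in C6) and of 7 astrocyte and pituicyte genes (4032, 5344, 5232, 155, 126 and 10664 CPM). The part of those cells in the HSP90AA1 value was not tested.

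HSPB1, also known as HSP27, is an ATP-independent small heat shock protein that binds unfolding clients and is abundant in smooth muscle and epithelia. It had 100, 130, 359, 1625, 563 and 636 counts, or 42.9, 47.6, 136, 711, 233 and 321 CPM. C4 was highest, at 711 CPM (95% Wilson interval 678 to 747), and C1 lowest, at 42.9 CPM (95% Wilson interval 35.3 to 52.1), so that they differed by 16.6-fold (exact 95% interval 13.5 to 20.5). The order was C4, C6, C5, C3, C2 and C1, and of these neighbours C2 and C1 were the only pair that did not differ beyond counting error, at a ratio of 1.11 (exact 95% interval 0.848 to 1.45). Without C4 the ratio was 7.48, with C6 highest. Within C4, C5 and C6 alone it was 3.06, and within C1, C2 and C3 alone, 3.17 with C3 highest.

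Among the 12 smooth muscle genes, all of which were called as differing, 11 were highest in C4, beside 80.9% called and 11.4% called and highest in C4 among all genes tested, and MYH11 and SMTN reached 60 counts only through C4. They summed to 431, 401, 647, 11992, 78.5 and 609 CPM, with 12 of 12 at 10 CPM or more in C4, 3 in C5 and 9 in C6. SMTN had 0 counts in C2 and ACTG2 had 0 in C5, and no other gene of the list was at 0 in any library. C5, with the lowest smooth muscle sum, had the third highest HSPB1, at 233 CPM (95% Wilson interval 214 to 253), above C3, which had a smooth muscle sum of 647 CPM and 136 CPM (95% Wilson interval 123 to 151). The part of smooth muscle in the level of HSPB1 was not tested.

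**Figure D2:**
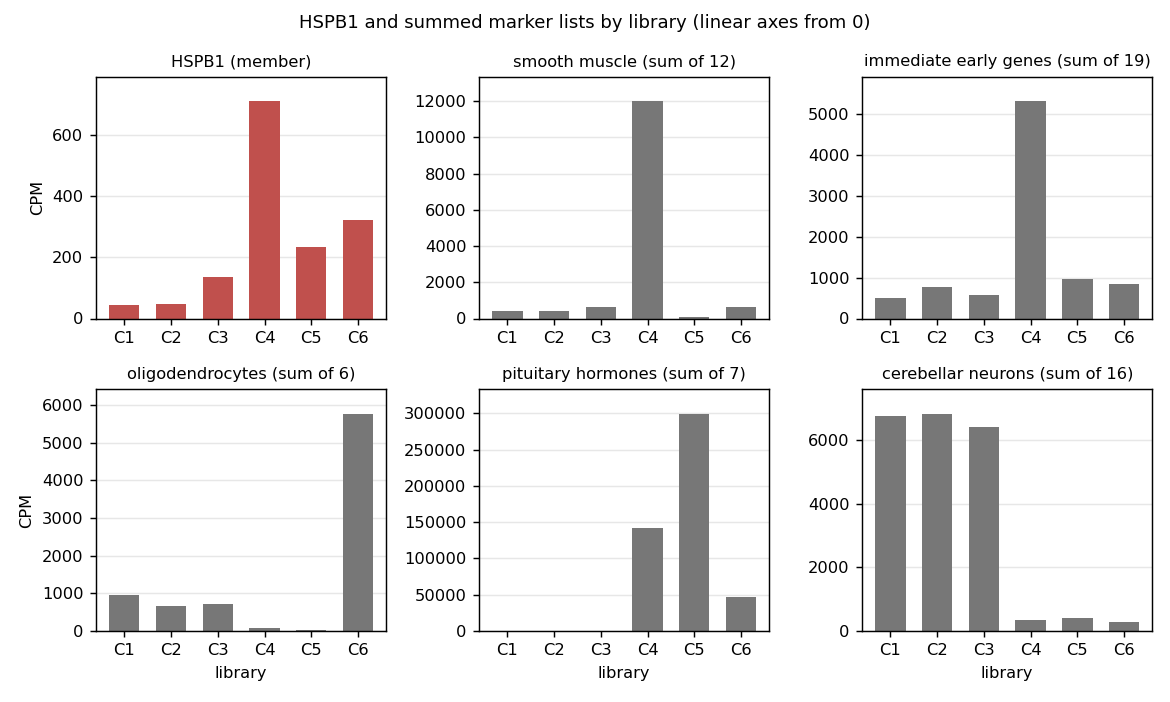
HSPB1 in CPM and the summed CPM of 5 gene lists in each library, as bars on linear axes from 0. HSPB1, smooth muscle and immediate early genes share C4 as the highest library (711, 11992 and 5316 CPM), while C5 and C6 have HSPB1 at 233 and 321 CPM with smooth muscle sums of 78.5 and 609 CPM.

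HSPA6, in humans a strictly stress-inducible HSP70 that resting cells hardly express, was the least abundant member in counts, at 5, 18, 12, 88, 16 and 7. Its level was 2.14, 6.59, 4.54, 38.5, 6.61 and 3.53 CPM. C4 stood alone at 38.5 CPM (95% Wilson interval 31.3 to 47.5), above the next library, C5, by a ratio of 5.82 (exact 95% interval 3.39 to 10.6), and above the lowest, C1, by 18.0-fold (exact 95% interval 7.41 to 56.7). No 2 neighbours among the other 5 libraries differed beyond counting error. Per 100 counts of HSPA8, HSPA6 had 0.157, 0.405, 0.273, 3.59, 0.582 and 0.330 counts, and the value of 3.59 (2.87 to 4.44) in C4 lay outside the intervals of the other 5. Without C4 the gene had 58 counts, below the minimum of 60, and was not tested, so its call rests on C4 and its values are a description. Within C4, C5 and C6 alone the ratio was 10.9. HSP70 genes are similar in sequence, and reads may have been split between HSPA6, HSPA8 and HSPA1A.

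The same library held the highest level of most immediate early genes, the transcripts that appear within minutes of a stimulus. Of 17 tested, all were called, 14 of them with their highest level in C4, beside 80.9% called and 11.4% called and highest in C4 among all genes tested. ATF3 and MYC, a growth-related transcription factor named for this alone, reached 60 counts only through C4, with 29 and 40 counts in the other 5 libraries. The 19 genes of that list summed to 511, 766, 587, 5316, 977 and 839 CPM. ATF3, a stress-induced transcription factor, was at 0.429, 1.10, 1.14, 235, 6.20 and 3.53 CPM, highest in C4 as HSPA6 was. NR4A1, a nuclear receptor of this early class, was highest in C5 instead, at 1.72, 0, 0.757, 106, 248 and 11.6 CPM, and IER2 and KLF6 were at 176, 198, 154, 237, 57.0 and 58.0 CPM and 139, 168, 118, 249, 43.8 and 175 CPM. Whether these levels and that of HSPA6 are related was not tested.

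HSPH1, an HSP110 protein that acts as a nucleotide exchange factor for HSP70, had 31, 41, 43, 125, 95 and 45 counts, or 13.3, 15.0, 16.3, 54.7, 39.3 and 22.7 CPM. C4 exceeded C1 by 4.12-fold (exact 95% interval 2.76 to 6.31), with a chi-square adjusted p of 1.12e-24. C4 was above C5 by a ratio of 1.39 (exact 95% interval 1.06 to 1.84) and C5 above C6 by 1.73 (exact 95% interval 1.20 to 2.52), while C6, C3, C2 and C1 were not separated from their neighbours. Within C4, C5 and C6 alone the ratio was 2.41 (chi-square adjusted p = 3.47e-06).

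DNAJB1, an HSP40 cochaperone whose J-domain starts the ATP cycle of HSP70, had 69, 115, 95, 138, 116 and 107 counts. Its level of 29.6, 42.1, 35.9, 60.4, 47.9 and 54.0 CPM was highest in C4 and lowest in C1, by 2.04-fold (exact 95% interval 1.52 to 2.77), with a chi-square adjusted p of 3.52e-06. This ratio lay just above the threshold of 2, and no library differed from its neighbour in the order beyond counting error. The call was lost under TMM scaling, where the ratio was 1.97, without C1 (1.68), without C4 (1.82) and within C4, C5 and C6 alone (1.26, chi-square adjusted p = 0.235).

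BAG3, which releases clients from HSP70 and links it to small heat shock proteins for disposal by autophagy, was not highest in C4, unlike HSPB1, HSPA6, HSPH1 and DNAJB1. It had 467, 694, 684, 229, 173 and 260 counts, or 200.3, 254, 259, 100.2, 71.5 and 131 CPM. C3 was highest and C5 lowest, by 3.62-fold (exact 95% interval 3.06 to 4.30), and under TMM and DESeq2 scaling C2 was highest and C5 lowest. C3 and C2 did not differ beyond counting error, with a ratio of 1.02 (exact 95% interval 0.916 to 1.13), and every other neighbouring pair did. C4 had 100.2 CPM (95% Wilson interval 88.1 to 114), the second lowest value. In TPM the ratio was 1.80, below 2, with the same highest and lowest libraries. BAG3 had a ratio of 1.83 within C4, C5 and C6 alone and was not called.

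HSPD1, or HSP60, is the chaperonin of the mitochondrial matrix, whose ring folds imported proteins with HSPE1 as its lid. It had 30, 26, 42, 85, 93 and 62 counts, or 12.9, 9.51, 15.9, 37.2, 38.4 and 31.3 CPM. C5 was highest and C2 lowest, by 4.04-fold (exact 95% interval 2.59 to 6.50), with a chi-square adjusted p of 7.31e-17. C5, C4 and C6 were not separated from each other in this order, and C6 exceeded C3 by a ratio of 1.97 (exact 95% interval 1.31 to 2.99). Within C4, C5 and C6 alone the ratio was 1.23 (chi-square adjusted p = 0.484), and within C1, C2 and C3 alone 1.67 (0.213). HSPA9, the HSP70 of the same compartment, did not share this order and was highest in C6, at 214, 240.0, 248, 228, 168 and 396 CPM.

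The inducible members together had 95.9, 95.4, 104, 129, 90.9 and 161 counts per 100 counts of the constitutive pair, HSPA8 and HSP90AB1. C6 was highest, at 161 (154 to 168), then C4, at 129 (124 to 134), and C5 was lowest, at 90.9 (87.2 to 94.8). HSP90AA1 made up most of these counts. Without it the values were 13.3, 13.1, 15.8, 49.1, 20.5 and 30.0, and the order changed, with C4 highest at 49.1 (46.6 to 51.6), C6 next at 30.0 (28.0 to 32.2) and C5 at 20.5 (19.1 to 22.0), against 13.3 (12.2 to 14.4), 13.1 (12.3 to 14.0) and 15.8 (14.9 to 16.8) in C1, C2 and C3.  HSPB1 made up most of the remainder in C4, with 1625 of 2205 counts, in C5 (563 of 963) and in C6 (636 of 1055), whereas BAG3 made up most of it in C1 (467 of 672), C2 (694 of 998) and C3 (684 of 1193).

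Single members relative to the constitutive pair moved by different amounts. HSPB1 had 1.98, 1.71, 4.75, 36.2, 12.0 and 18.1 counts per 100 constitutive counts, with the lowest value in C2 and the highest in C4. DNAJB1 had 1.36, 1.51, 1.26, 3.07, 2.47 and 3.05, and HSPH1 had 0.613, 0.538, 0.570, 2.78, 2.03 and 1.28. On this measure DNAJB1 was at 3.07 (2.57 to 3.64) in C4 and 3.05 (2.49 to 3.69) in C6, against 1.26 (1.02 to 1.54) in C3. HSPD1 had 0.593, 0.341, 0.556, 1.89, 1.98 and 1.77. BAG3 had 9.23, 9.11, 9.06, 5.09, 3.69 and 7.41, close together in C1, C2 and C3 and lowest in C5. Because both parts of each value come from the same library, these values do not change with TMM or DESeq2 scaling.

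**Figure D3:**
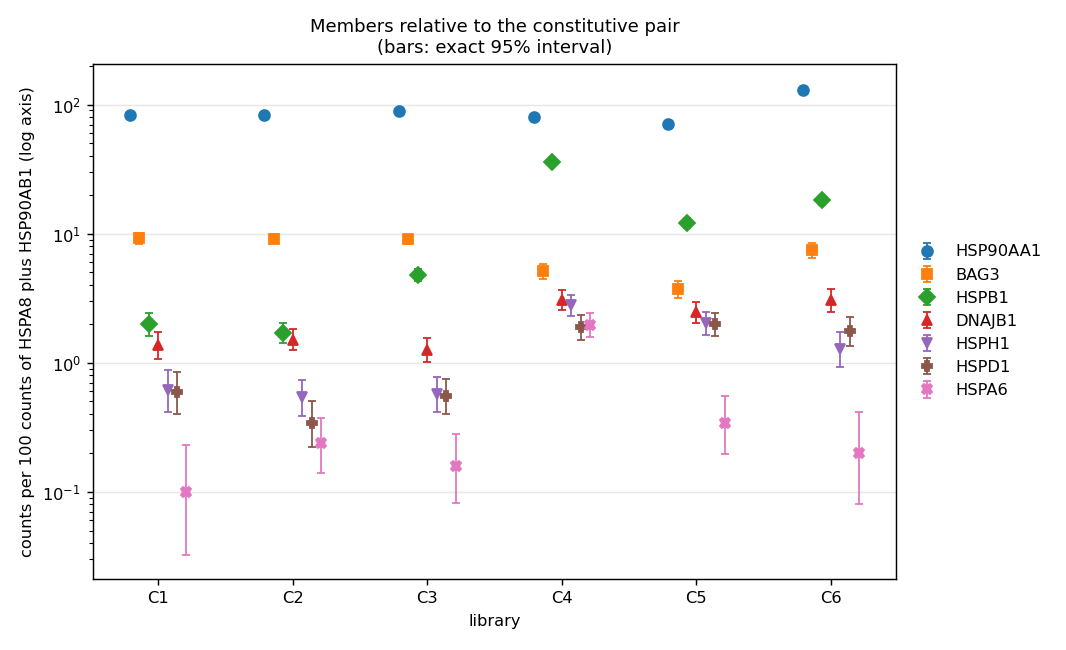
Counts of each inducible member and of HSPD1 per 100 counts of HSPA8 plus HSP90AB1 in each library, on a log axis, with exact 95% intervals as bars. HSPB1 runs from 1.71 in C2 to 36.2 in C4, HSPA6 stands out in C4 at 1.96, and BAG3 is lowest in C5 at 3.69.

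Levels of different genes were also set against each other in the authors' TPM, which are scaled per length. Whether reads of full-length complementary DNA need this scaling was not tested. On that scale HSP90AA1 was at 105, 146, 187, 217, 203 and 262 TPM and HSPA8 at 107, 138, 165, 199.7, 227 and 162 TPM, and these genes took the first place in C1, C2, C3, C5 and C6. In C4 HSPB1 was first, at 502 TPM, against 217 TPM for HSP90AA1 and 199.7 TPM for HSPA8 in that library. In counts, which are not scaled per length, HSPB1 was not first in C4, with 1625 against 3572 for HSP90AA1 and 2450 for HSPA8. HSPB1 was at 12.8, 15.3, 51.0, 502, 176 and 185 TPM in all. HSPA6 was last in every library, at 0.158, 0.525, 0.422, 6.73, 1.24 and 0.503 TPM. HSPA6 was thus below HSPA8 even in C4, by 6.73 against 199.7 TPM.

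The TPM scale also moved the libraries against each other. The median log2 ratio of TPM to CPM over the tested genes was -2.01, -1.91, -1.72, -0.95, -0.89 and -1.31, higher in C4, C5 and C6 than in C1, C2 and C3. In TPM, HSP90AA1 was therefore highest in C6 and lowest in C1, with a ratio of 2.49. HSP90AB1 was highest in C4 and HSPA8 in C5, with ratios of 2.63 and 2.11, and C1 was lowest for both. The ratios of HSPB1, HSPA6, HSPH1 and DNAJB1, each highest in C4 and lowest in C1 on both scales, were 39.3, 42.5, 13.7 and 4.83 in TPM. In TPM 8 of 9 members had a ratio of at least 2, without a test, against 91.5% of the 13248 genes tested that had such a ratio or were listed at 0 in a library.

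Relative to HSPA8, the log2 ratio of TPM to CPM was constant across libraries for 6 of the other 8 members, with ranges of at most 0.00626. HSPH1 and HSPD1 differed from this. For HSPH1 the values were 0.78, 1.24, 0.71, 1.27, 0.15 and -0.03, a range of 1.30, and for HSPD1 they were 1.16, 0.60, 0.38, 1.30, 0.62 and 1.00, a range of 0.92. The gene length implied by the deposited counts and TPM of these genes was therefore not the same in every library. Per 100 constitutive TPM, HSPH1 was at 1.11, 1.35, 0.990, 7.17, 2.37 and 1.33, and C4 exceeded C5 by more than in counts. HSPD1 was highest in C4 in TPM, at 17.1 TPM, and in C5 in CPM. Single transcripts were not analysed here.

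**Figure D4:**
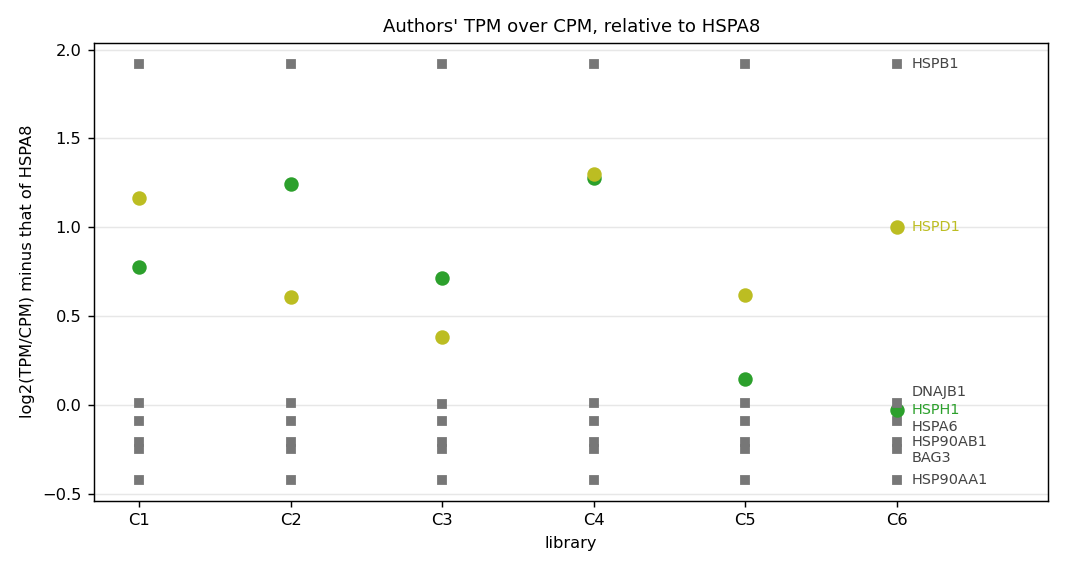
Log2 ratio of the authors' TPM to CPM of each member minus that of HSPA8, by library, with 1 point per library. Grey points of 6 members lie on flat rows, while HSPH1 runs from -0.03 in C6 to 1.27 in C4 and HSPD1 from 0.38 in C3 to 1.30 in C4.

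The wider folding machinery of the cytosol and mitochondria was described by 8 further gene lists. Of their 75 tested genes 47 were called, or 62.7%, beside 80.9% of all genes tested, and their median ratio was 2.39, beside 4.31. Of the 75 tested genes 19 were called and highest in C6, 8 in C4, 7 in C5, and 4, 4 and 5 in C1, C2 and C3. Of all genes tested, 17% were called and highest in C6, and 11.4% in C4. For the genes of lists named below, levels and highest libraries are in CPM unless another scale is named. Of 37 such genes with at least 60 counts 34 had the same highest library under TMM scaling, 33 under DESeq2 scaling and 26 in TPM. The exceptions were ST13, BAG1 and STUB1 under TMM and DESeq2 scaling, with CCT2 under DESeq2 scaling. In TPM they were HSBP1, HSF5, HSPA4L, HSPA12A, BAG1, STUB1, BAG6, DNAJC19, CCT4, HSPA1A and HSF1.

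Small heat shock proteins had the widest ratios. All 5 tested were called, beside 80.9% of all genes tested, with a median ratio of 30.5, beside 4.31. That median is the ratio of HSPB2, named for this alone. HSPB2 had 1 count in C5, so its ratio is uncertain (exact 95% interval 5.00 to 1253). CRYAB, or alpha-B crystallin, abundant in muscle and glia, was at 67.8, 49.0, 93.1, 212, 8.27 and 1024 CPM, highest in C6 and lowest in C5, by 124-fold (exact 95% interval 80.0 to 203). C6 had the highest oligodendrocyte sum, 5774 CPM, and C4, second for CRYAB, had the highest smooth muscle sum, 11992 CPM. The part of those cells in the level of CRYAB was not tested. HSPB8, the partner of BAG3 in autophagy, was at 114, 104, 174, 98.0, 69.0 and 382 CPM, highest in C6, and so did not share the order of BAG3. HSPB3, best known from muscle, was at 40.3, 42.8, 17.8, 3.50, 1.24 and 2.52 CPM, highest in C2 and lowest in C5, where it had 3 counts. HSPB6, a smooth muscle form named after its values were seen, was at 8.15, 6.22, 9.84, 155, 6.20 and 46.9 CPM and highest in C4, as HSPB1 was. Of the members under 60 counts, also named afterwards, CRYAA had 15 counts in C6 and 0 elsewhere, and HSPB9 had 0 in all 6 libraries.

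Other HSP70 and HSP110 genes were called in 7 of 8 cases, beside 80.9% of all genes tested. HSPA1A, the classical inducible HSP70 and the gene most like HSPA6 in its known role, was named after its values were seen. It was at 32.6, 40.6, 59.4, 137, 63.6 and 166 CPM, highest in C6 and next in C4, by 5.09-fold (exact 95% interval 3.96 to 6.63) over C1, whereas in TPM C4 was highest. Per 100 constitutive counts it had 9.37 (8.34 to 10.5) in C6 and 6.96 (6.19 to 7.81) in C4, while HSPA6 in C6 was at 0.199. HSPA2, an HSP70 best known from the testis, was at 10.3, 5.85, 7.19, 45.1, 48.8 and 212 CPM, highest in C6 by 36.2-fold (exact 95% interval 22.0 to 63.9) over C2. HSPA4L, an HSP110 protein, was at 149.7, 159.9, 192, 70.0, 99.2 and 64.6 CPM and highest in C3, HSPA13 was at 47.6, 58.9, 67.0, 151, 181 and 101 CPM and highest in C5, and HSPA12A was at 7.29, 6.95, 4.16, 3.06, 4.96 and 16.7 CPM and highest in C6.

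HSF1, the master regulator of the inducible genes, was at 29.6, 22.0, 21.9, 17.5, 12.4 and 17.7 CPM. It was lowest in C5 and highest in C1 in CPM and under TMM and DESeq2 scaling. In TPM alone HSF1 was highest in C4 and next in C6, at 6.39, 5.11, 5.92, 8.96, 6.38 and 7.16 TPM. It was named after its values were seen. HSF2 was at 2.14, 3.29, 1.89, 10.5, 15.3 and 5.05 CPM and highest in C5, and HSF5 at 30.0, 24.9, 23.8, 10.5, 7.85 and 18.2 CPM and highest in C1. HSBP1, a small protein that binds heat shock factor trimers, was at 947, 1047, 992, 415, 312 and 851 CPM, lowest in C5 and highest in C2. All 4 tested genes of this list were called, beside 80.9% of all genes tested.

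J-domain cochaperones were called in 8 of 12 cases, beside 80.9% of all genes tested. DNAJC6, the neuronal auxilin that recruits HSPA8 to clathrin coats, was at 699, 602, 556, 264, 217 and 326 CPM and highest in C1. DNAJA1, a general partner of HSPA8, was at 116, 136, 179, 187, 278 and 222 CPM and highest in C5, DNAJB2 at 2.14, 1.83, 2.27, 8.75, 13.2 and 26.7 CPM and highest in C6, and DNAJB6 at 15.4, 8.42, 17.8, 24.5, 32.7 and 30.8 CPM and highest in C5. In the list of BAG proteins and exchange factors, which also held ST13 and STUB1, 3 of 5 were called, beside the same 80.9%. ST13, which stabilises the ADP-bound state of HSP70, was at 507, 550.3, 541, 668, 611 and 593 CPM and passed no ratio of 2. BAG1 was at 54.0, 54.2, 57.5, 31.5, 28.5 and 32.3 CPM and below its level in C1, C2 and C3 in each of C4, C5 and C6 in CPM, as BAG3 was. STUB1, the ubiquitin ligase that marks clients of HSP70, was at 11.6, 18.7, 17.4, 50.8, 64.5 and 66.6 CPM and lowest in C1, and BAG6 was at 2.14, 2.93, 3.41, 6.57, 5.37 and 7.57 CPM.

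HSP90 cochaperones were called in 9 of 15 cases, beside 80.9% of all genes tested. Of the 15, 4 were called and highest in C4, 1 in C5 and 4 in C6. Of all genes tested, 11.4, 9.42 and 17% were called and highest there. FKBP5, an immunophilin of steroid receptor complexes that glucocorticoids induce, was at 50.6, 61.8, 60.9, 354, 191 and 158 CPM, highest in C4 by 6.99-fold (exact 95% interval 5.76 to 8.55) over C1. PTGES3, or p23, was at 89.6, 61.1, 90.1, 198, 177 and 265 CPM and highest in C6, SUGT1 was at 124, 118, 161, 209.7, 246 and 233 CPM and highest in C5, and FKBP8 was at 8.15, 4.03, 10.2, 24.5, 26.9 and 45.9 CPM and highest in C6. Of the mitochondrial folding genes 6 of 12 were called, beside the same 80.9%. TRAP1, the mitochondrial HSP90, was at 1.29, 1.10, 1.14, 8.75, 14.5 and 7.06 CPM and highest in C5, as HSPD1 was, and so was YME1L1, an inner membrane protease, at 16.3, 14.6, 17.8, 36.3, 77.7 and 44.9 CPM. DNAJC19, of the import motor, was at 137, 132, 128, 124, 102 and 133 CPM and was not called. The CCT chaperonin and prefoldin, which fold actin and tubulin, had the closest levels, with 5 of 14 called, beside 80.9%, and a median ratio of 1.83. In that list CCT2 was at 209, 259, 282, 288, 235 and 234 CPM, PFDN5 at 167, 228, 232, 264, 298 and 248 CPM, CCT4 at 149, 180.4, 319.7, 151, 172 and 122 CPM with its highest level in C3, and CCT6A at 50.2, 61.8, 102, 79.2, 89.7 and 145 CPM with its highest level in C6.

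**Figure D5:**
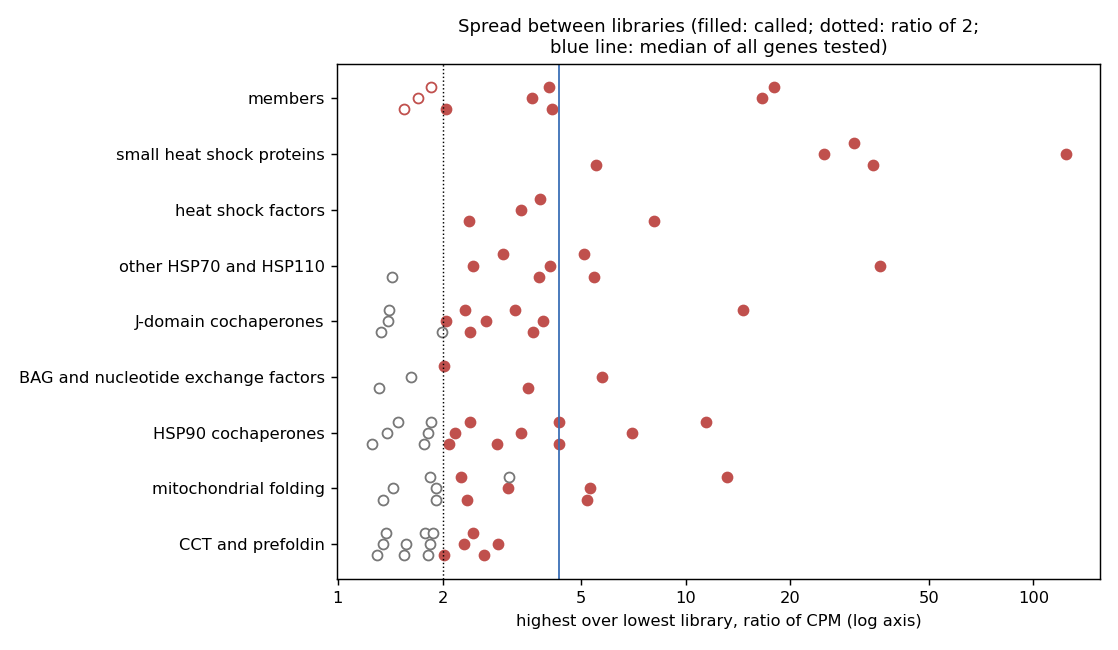
Ratio of highest to lowest library in CPM for the 9 members and the tested genes of 8 lists, on a log axis, with filled points for called genes, a dotted line at 2 and a blue line at the median of all genes tested. The members spread from 1.55 (HSPA8) to 18.0 (HSPA6), and the small heat shock proteins reach 124 (CRYAB).

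The chaperones of the endoplasmic reticulum had another order. Of the 14 tested, 13 were called and 11 were called and highest in C5. Of all genes tested, 80.9% were called and 9.42% were called and highest in C5. The hormone genes also summed highest in C5, and their part in these levels was not tested. HSPA5 and HSP90B1, the HSP70 and HSP90 of that compartment, were at 479, 596, 558, 1136, 1490.0 and 692 CPM and 589.6, 741, 1005, 1718, 2129.8 and 1517 CPM, both highest in C5. SDF2L1 and MANF had the largest ratios, at 6.00, 4.39, 11.7, 15.3, 39.7 and 31.8 CPM and 3.43, 6.22, 11.4, 33.7, 53.3 and 24.7 CPM. In C5 the members HSPA8, HSP90AB1 and HSP90AA1 were not at their highest in CPM, and of the 9 members HSPD1 was the only one with its highest CPM there. In TPM, however, HSPA8 was highest in C5, at 227 TPM.

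Likeness of pattern was measured as the root mean square difference of log2(CPM + 1) over the 6 libraries, after subtracting each gene's mean, as a description without a test. Among the members HSP90AB1 and HSPA8 were nearest to each other, at 0.150, then HSP90AA1 and HSPA8, at 0.267, and HSPH1 and HSPD1, at 0.355. HSPB1 and BAG3 were farthest apart, at 1.99. HSPA6 was nearer to HSPH1 (0.712) than to its constitutive paralogue HSPA8 (1.28).

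Among all genes with a symbol and at least 60 counts, the 2 nearest to HSPA8 were ATP5MG (0.0531) and DCAF12 (0.0547), and the nearest to HSP90AB1 were MAGOH (0.0949) and LAGE3 (0.0973). HSP90AA1 was closest to ATP5F1D (0.0834) and MLF2 (0.0893), of which ATP5F1D is a subunit of ATP synthase. HSPB1 had UBE2L6 (0.217) and IL2RG (0.282) as its nearest genes, and these lay farther off than those of most members. UBE2L6, a ubiquitin-like conjugating enzyme known from the interferon response, was at 1.72, 1.83, 4.92, 28.9, 12.4 and 16.7 CPM. HSPA6 was closest to RASL11A (0.309) and NTN4 (0.310), both of them highest in C4. HSPH1 was closest to ZFHX3 (0.0884) and EIF2AK2 (0.134), and EIF2AK2, the RNA-activated kinase PKR, was at 10.7, 12.4, 10.6, 41.6, 28.9 and 20.2 CPM. DNAJB1 was closest to NUDCD1 (0.0763) and STX5 (0.0839), HSPD1 to ORMDL1 (0.0808) and ARFGAP2 (0.121), and BAG3 to PDS5A (0.0861) and TYW3 (0.0877).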

How the data were processed

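Pituitary RNA of 6 sheep was made into amplified full-length complementary DNA, per the labels. The aligner named in the submitters' processing notes is minimap2 2.17-r941. How genes were counted, on which genome build and annotation, is not given in the sources used here. The authors deposited estimated counts, which were not normalized. Of their values 24.0 to 29.8% in a library had decimals, and rounding came before any test. The authors' TPM, as deposited, are scaled per length and to a total of 1000000.

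CPM divides each rounded count by the sum over genes in its library. Homogeneity over libraries was tested by chi-square (scipy 1.17.1) for genes with 60 or more counts in total, with Benjamini-Hochberg adjustment. In ratios, libraries without a count entered with 3 counts. The calculation was tested on simulated Poisson counts of 13201 genes: it called 97.0% of genes changed 3-fold, 100% of genes changed 6-fold and 4 unchanged genes. Simulated counts were independent, and unchanged genes had the same share in every library, unlike these data. The rate of false calls in these data was therefore not measured. Within-library ratios have exact Clopper-Pearson intervals.

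The members and gene lists were chosen with earlier results of these data known. By rule, all members were named, the 2 genes of each list with the highest median CPM and the 2 with the largest ratio, and the 2 genes nearest to each member. Alternatives were edgeR 4.0.16 TMM and DESeq2 1.42.0 size factors, TPM, thinned counts, other thresholds and pseudocounts, and left-out libraries.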

Additional observations from a re-analysis of the deposited data

Results flagged for a closer look

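The highest and the lowest of the 6 libraries were each set against the others by Dixon's gap criterion at its 95% critical value of 0.625, for 22 values that share genes and libraries, and 5 stood apart. Chance flags about 1 in 20, and the libraries are not replicates of a group. HSPA6 stood apart in C4, at 38.5 CPM, with 3.59 counts per 100 of HSPA8 and 1.96 per 100 of the constitutive pair. These HSPA6 values rest on the same count in C4 and are not separate results. HSPA6 had 58 counts without C4, below the minimum for testing, and so entered the tests only through C4. Its flags therefore add no support to its call. HSP90AA1 stood apart in C6, with 329.6 counts per 100 of HSP90AB1 and 131 per 100 of the constitutive pair. Both of these ratios hold the same HSP90AA1 and HSP90AB1 counts and are not separate results. The CPM of HSP90AA1 did not stand apart in C6, at 2314 beside 2532 in C3, and HSP90AB1 was at its lowest in C6, at 702 CPM. HSPB1 in C4 did not pass the criterion.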

How the results depend on the processing

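Of 9 members 6 were called, and 4 to 6 with 1 library left out. Of all genes 9272 to 9760 were then called, or 73.9 to 78.9% of those tested (10723 or 80.9% with all libraries). Of the genes in the 9 folding lists, those of the endoplasmic reticulum included, 48 to 57 were called (60 with all libraries). Without C4, HSPA6 was not tested and DNAJB1 was not called, and without C1 DNAJB1 was not called. At a ratio of at least 3, 37 genes of the lists and 5 members were called, against 64.3% of all genes tested, and at a ratio of at least 1.5 all 9 members, against 88.8%. The libraries were also split, an alternative added after seeing the data. C4, C5 and C6 gave 3 members, 3688 genes (40.2% of those tested) and 22 list genes called, and C1, C2 and C3 gave 1, 1061 (10.3%) and 4. The shifts of the libraries against CPM ranged from -0.10 to 0.21 (log2) under TMM and from -0.16 to 0.31 under DESeq2 factors, both extremes in C3 and C5. HSP90AA1 in C3 over C5 was 0.89 (log2) in CPM and reversed to -0.11 in TPM. Inducible per 100 constitutive became 13.3, 13.1, 15.8, 49.1, 20.5 and 30.0 without HSP90AA1 and 83.6, 83.3, 99.7, 226, 112 and 187 in TPM, where C4 and not C6 was highest. HSP90AA1 per 100 of HSP90AB1 became 192, 171, 183, 151, 147 and 284 in TPM, in the same order of libraries. Of the 18 nearest genes 5 were the same with a pseudocount of 5 and 15 with 0.5, so these names depend on the pseudocount. The planned ratio of HSPE1 to HSPD1 was not run, since HSPE1 was not analysed here. No paired analysis was possible because the labels put no library in a group. HSPA6 rests on 5 to 18 counts in each library other than C4, and differences between neighbours among those libraries were not detectable at this depth.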
